A study of Arabidopsis thaliana with 24 samples.

Results

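The comparison described here set 3 arrays of root meristems after 6 h on dexamethasone against 3 arrays at 0 h, 6 of the 24 arrays of a time course over 8 times. The samples were chosen by their titles, and 16554 genes were tested. All plants were Arabidopsis thaliana of the Col-0 background and carried pRPS5A::TMO5:GR and pRPS5A::LHW:GR together, at 0 h as well as at 6 h. The RPS5A promoter is active in dividing cells, so the fusions were not limited to vascular tissue. Seedlings aged 4 days were moved to medium with dexamethasone (DEX), and root meristems were taken for RNA. A transfer without the steroid was not analysed here, and transfer, steroid and elapsed time cannot be told apart. Nothing in the labels states that repeats are separate cultures, so p-values may measure technical spread alone.

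TMO5 and LHW are basic helix-loop-helix (bHLH) transcription factors that work as a pair in young vascular cells, where they promote the divisions that widen the vascular cylinder. Part of their action runs through cytokinin made under their control, which neighbouring cells sense through a phosphorelay that ends in response regulators. Fusion to the glucocorticoid receptor domain (GR) holds a transcription factor outside the nucleus until a steroid such as DEX is given. In whole meristems, fewer cells of a type and less RNA per cell cannot be told apart.

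Values are on the log2 scale of RMA, and a log2 change of 1 is a factor of 2. A gene was called, and is said below to have risen or fallen, at an adjusted p under 0.05 in a limma fit of all 24 arrays with Benjamini-Hochberg adjustment over all genes. Of the 3 arrays at 0 h, array 3 lay nearest the 6 h arrays. On the first principal component (18.8% of the variance) it lay at -5.16, against -27.2 and -21.5 for arrays 1 and 2, while the 6 h arrays lay between 11 and 13.8. Counts of calls in a family are therefore also given without array 3 of 0 h where they differ. On the same component repeat 3 also lay above repeats 1 and 2 at each time from 0.5 h to 5 h. The stem cell marker BBM had means of 5.20 ± 0.36 at 0 h and 5.19 ± 0.07 at 6 h (SD, n = 3), and the cortex and ground tissue marker JKD 8.20 ± 0.08 at 0 h and 8.21 ± 0.11 at 6 h. None of the root cap, endodermis or xylem markers listed for this work was measured under a single gene name.

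At 6 h, 686 of 16554 genes were called (4.14% of all tested), 413 higher (2.49%) and 273 lower (1.65%). Without array 3 of 0 h the fit called 1129 genes (6.82%), 702 higher (4.24%) and 427 lower (2.58%), and 602 genes were called the same way in both fits. Leaving out any other array lowered the count of 686, to 317 without array 1 and 410 without array 2 of the 0 h group, and to 411, 339 and 383 when the 6 h arrays 1, 2 and 3 were left out in turn. With each array centred on its median over genes the majority turned, with 313 higher (1.89%) and 411 lower (2.48%). Centring moved the change of every gene by the same -0.06. The fit of the 6 arrays alone called 197 genes. The plot of called genes under each setting shows these counts.

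**Figure D1:**
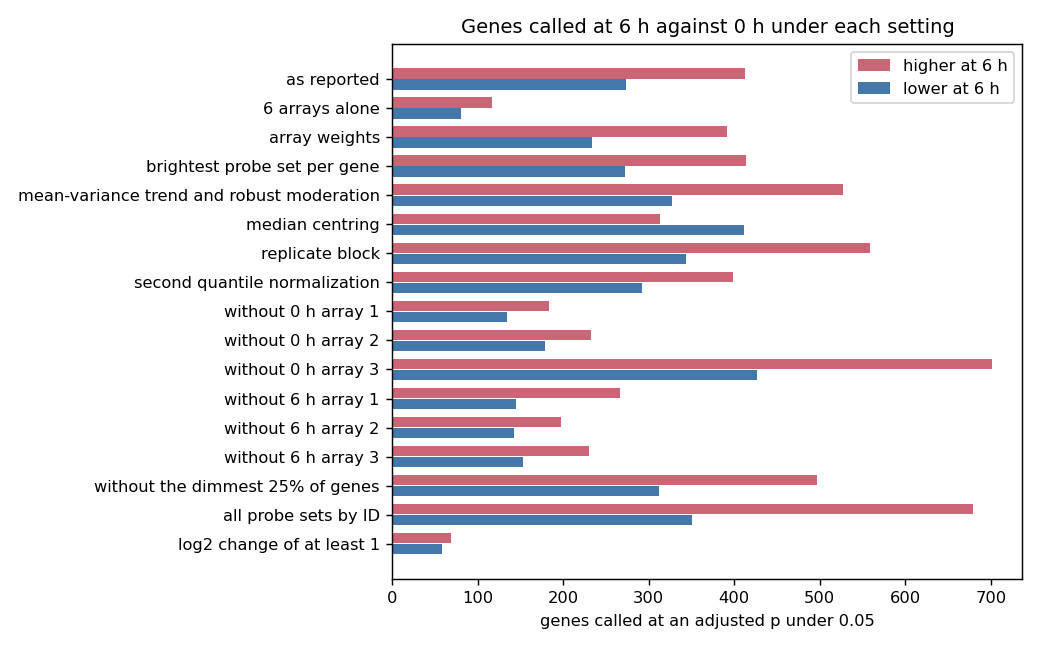
Number of genes called higher (red) and lower (blue) at 6 h against 0 h, on the horizontal axis, for the fit as reported and each alternative. Rises outnumber falls in the fit as reported (413 and 273), and falls outnumber rises only after median centring (313 and 411).

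Most called changes were moderate. The log2 change was under 0.5 in size for 141 called genes, from 0.5 to 1 for 418, from 1 to 1.5 for 99 and 1.5 or more for 28. In 676 of the 686 the 3 arrays of one time lay wholly above those of the other. Over all genes, 1660 (10%) lay wholly higher at 6 h and 1769 (10.7%) wholly lower. The annotation used here gave a symbol to 1804 of the genes tested, of which 99 were called, 65 higher and 34 lower. The other 587 called genes are known here by locus alone. Named members of 58 families and functional lists held 927 genes, and 70 of them were called, 45 higher and 25 lower. Over all 16554 genes tested the share called was 4.14%. Calls occurred in 38 of the 58, and the other 20 had none. Family counts below cover these named members, not whole families of the genome. The families and lists were chosen with earlier results of these data known, so their shares of calls and medians are not independent evidence.

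**Figure D2:**
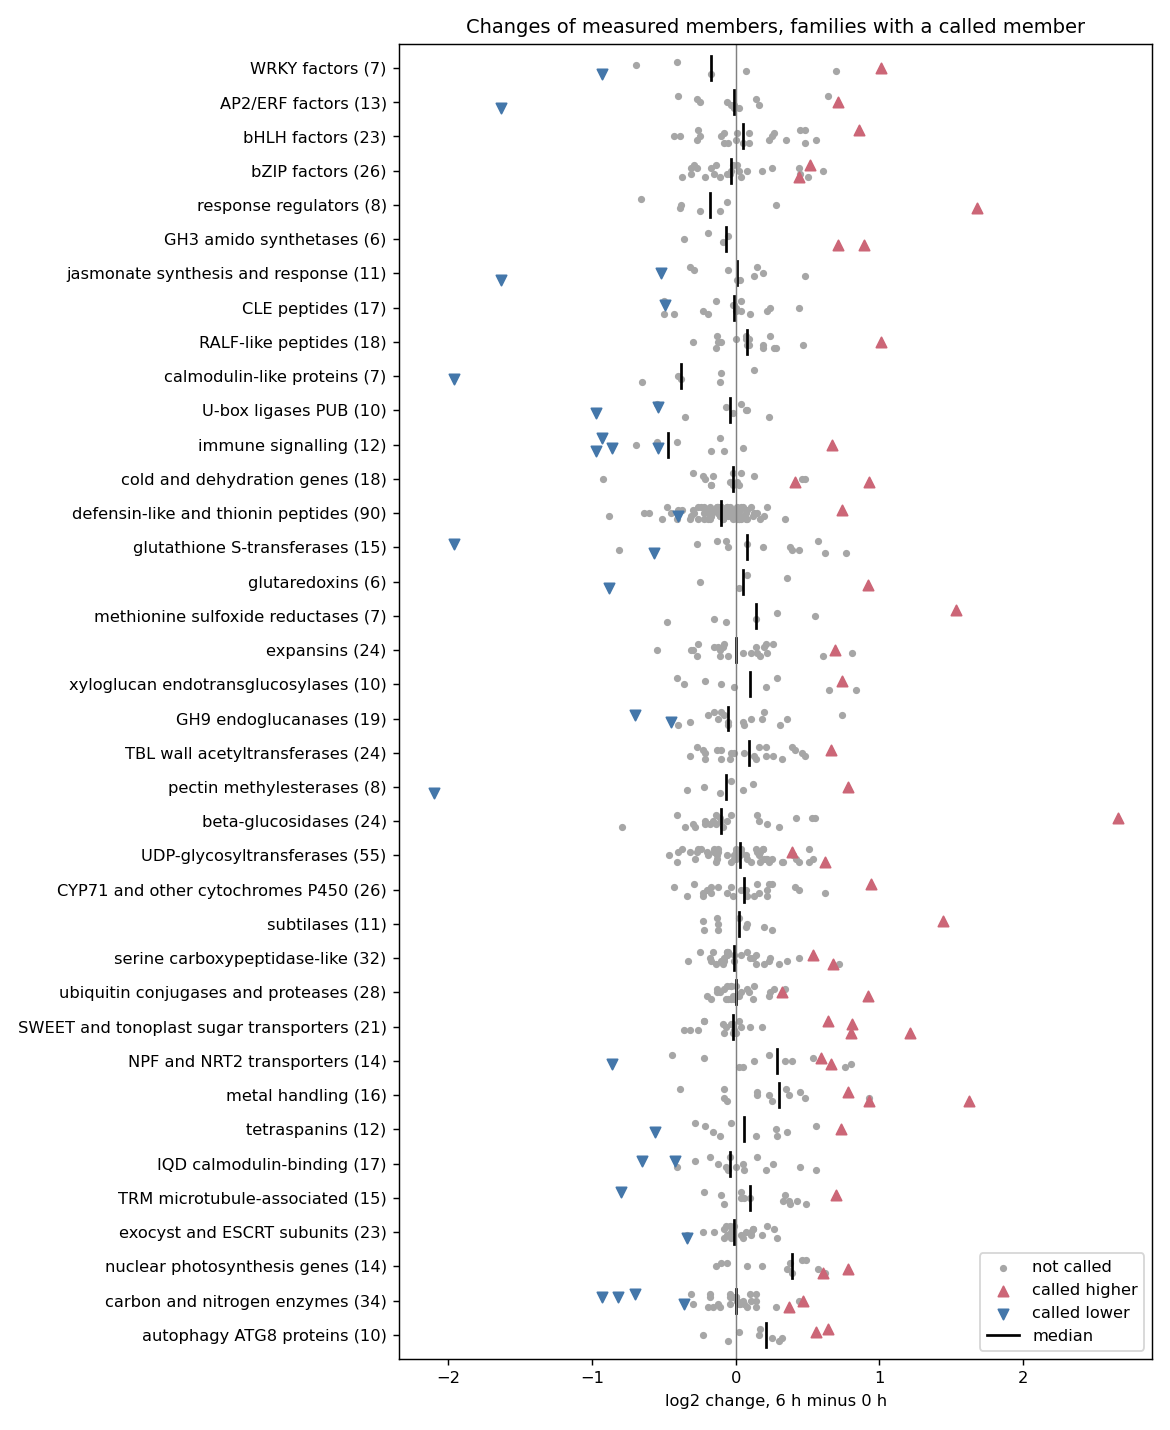
Log2 change from 0 h to 6 h (horizontal axis) of every measured member of the 38 families and lists with at least 1 called gene, with the number of members in brackets. Grey dots were not called, red triangles were called higher, blue triangles lower, and black ticks are medians. In most families 1 or 2 members stand away from a cluster near 0, while 4 sugar transporters lie together to the right and 4 immune signalling genes to the left.

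The gene in the title of the series, DOF2.1, is a DOF transcription factor gene known to act downstream of the TMO5 and LHW pair, and the tables used here list its locus, AT2G28510, without a name. Its values were 6.01, 6.48 and 6.47 at 0 h against 7.35, 7.51 and 7.40 at 6 h. All 6 h arrays lay above all 0 h arrays, and the rise was 1.1 ± 0.15 (SE, limma adjusted p = 2.08e-04). LHW itself measured 7.27, 7.23 and 7.47 at 0 h against 7.33, 7.21 and 7.20 at 6 h, and its arrays overlapped, with a change of -0.08 (adjusted p = 0.774). The probe set of LHW may read both the plant's own gene and the introduced copy. TMO5 was not analysed here, for want of a probe set assigned to it alone.

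Transcription factor families were split, with single members rising or falling. WRKY42, known from the control of phosphate transport genes, measured 5.42, 5.51 and 5.87 at 0 h against 6.60, 6.78 and 6.46 at 6 h. Its 6 h arrays were all higher, with a rise of 1.01 ± 0.15 (SE, limma adjusted p = 4.17e-04). WRKY22, a factor of the response to bacterial flagellin, fell by 0.93, and the other 5 of 7 measured WRKY genes were not called. Leaving out array 3 of 0 h added a rise of WRKY47. NAI1, a bHLH factor needed for the endoplasmic reticulum bodies of seedlings, measured 4.29, 4.55 and 4.67 at 0 h against 5.26, 5.25 and 5.59 at 6 h. It rose by 0.86 ± 0.14 (SE, adjusted p = 0.00122), with no overlap between the times. NAI1 was the only called member of 23 measured bHLH genes, and without array 3 of 0 h there were 2. In the AP2/ERF family tny (TINY), a factor that restricts growth when overexpressed, rose by 0.71, ORA47 fell and 11 of 13 members were not called.

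Among 26 bZIP genes, EEL, which binds promoters active in embryos, rose by 0.52. bZIP19, an activator of the zinc deficiency response, rose by 0.44. After median centring the bZIP calls were 1 higher and 1 lower, and without array 3 of 0 h they were 3 higher. Leaving out single arrays ended the calls of WRKY22 (array 1 of 0 h or any array of 6 h, 0.0509 to 0.121), tny (array 1 of 0 h or any array of 6 h, 0.0745 to 0.196), EEL (array 1 or 2 of 0 h or array 2 or 3 of 6 h, 0.0518 to 0.0911) and bZIP19 (array 1 or 2 of 0 h or any array of 6 h, 0.0871 to 0.201), where the values in brackets are the arrays and the adjusted p without them. Over 14 alternatives the adjusted p of these 4 ran from 0.00719 for tny to 0.213 for bZIP19.

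**Figure D3:**
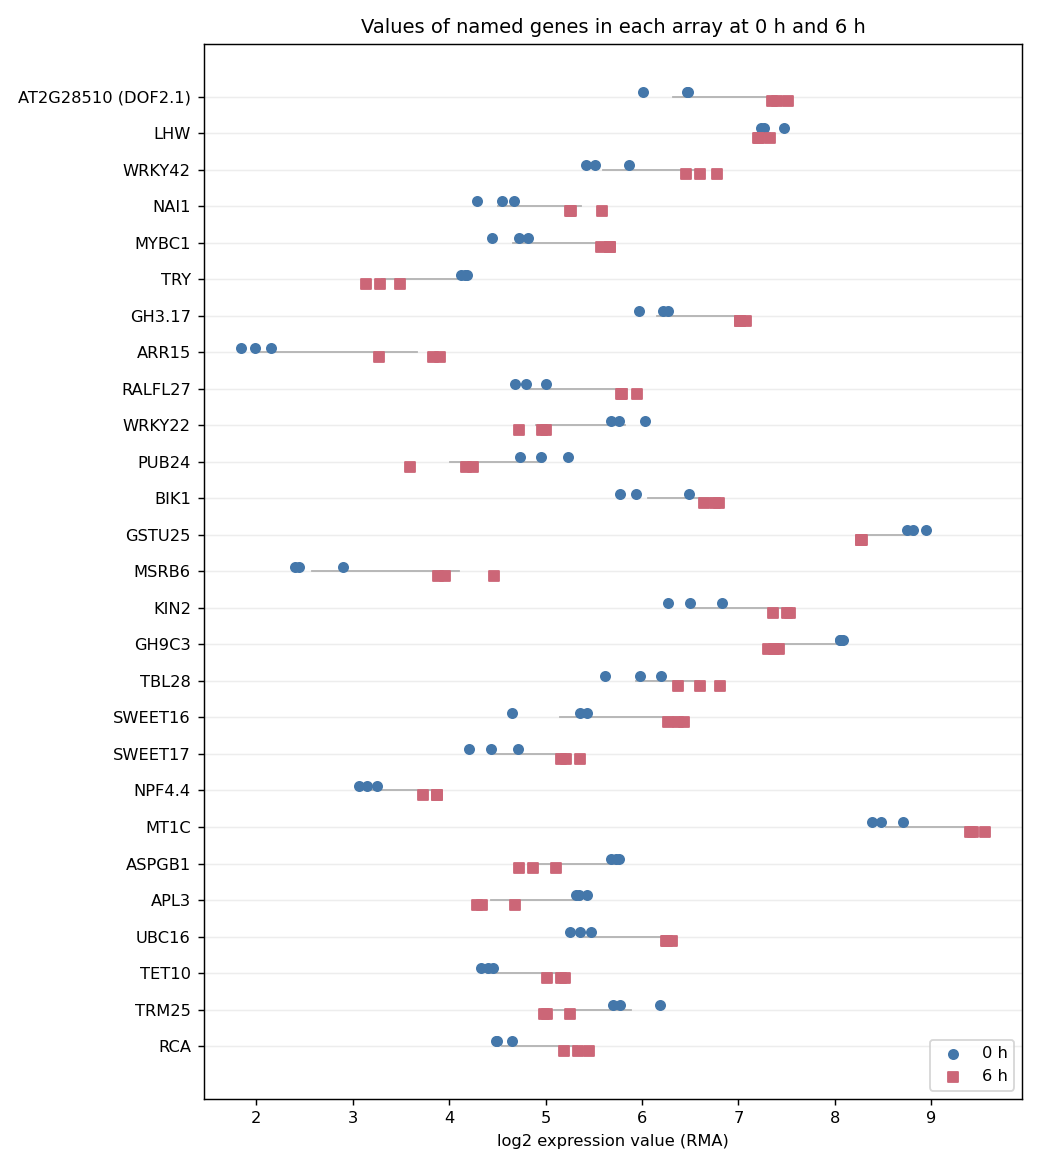
Log2 expression value (horizontal axis) of 27 genes in each of the 3 arrays at 0 h (blue circles) and 6 h (red squares), with a grey line between the 2 means. The times separate in every gene shown except LHW, whose arrays overlap.

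Calls among the hormone lists fell on 2 GH3 genes, 1 response regulator and 2 jasmonate genes (33.3%, 12.5% and 18.2% called, against 4.14% over all genes). The medians of the 3 lists were -0.07, -0.18 and 0.01 against -0.03 over all genes. GH3.17, an enzyme that links auxin to glutamate, measured 6.22, 5.97 and 6.27 at 0 h against 7.02, 7.02 and 7.08 at 6 h. It rose by 0.89 ± 0.11 (SE, limma adjusted p = 6.47e-05), and every 6 h array was above every 0 h array. WES1 (GH3.5), a related auxin-conjugating enzyme, rose by 0.71. The other 4 of 6 measured GH3 genes were not called, such as GH3.1 with a change of -0.36 and GH3.3 with -0.05. After median centring WES1 was not called (adjusted p = 0.0503) and GH3.1 was called lower, which made 1 rise and 1 fall. None of the 8 Aux/IAA repressors was called, with changes from -0.18 to 0.59, and none of the 4 YUC auxin synthesis genes, with changes from -0.18 to 0.31.

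The cytokinin-induced type-A response regulator ARR15 measured 2.15, 1.99 and 1.84 at 0 h against 3.91, 3.27 and 3.83 at 6 h, a rise of 1.68 from a low level. The other type-A gene measured, RR16, had a change of 0.28 (adjusted p = 0.692), and none of the other 6 response regulators measured was called. RR21 was called lower when array 3 of 0 h was left out. In the jasmonate list of 11, OPCL1, an enzyme that activates a precursor of jasmonate, measured 7.16, 7.22 and 7.16 at 0 h against 6.59, 6.72 and 6.67 at 6 h and fell by 0.52 ± 0.13 (SE, adjusted p = 0.0235). Its arrays did not overlap between the times. ORA47, a factor that promotes jasmonate synthesis, fell by 1.63. MYC3 and MYC4, factors that switch on jasmonate response genes, were not called, with changes of -0.05 and 0.48. The 3 GID1 gibberellin receptors had changes from 0.10 to 0.40, none called. Single arrays ended the calls of WES1 (array 1 or 2 of 0 h or any array of 6 h, 0.0902 to 0.226), OPCL1 (array 1 or 2 of 0 h or any array of 6 h, 0.0564 to 0.0869) and ORA47 (array 1 of 0 h, 0.0783). The adjusted p of these 3 ran from 0.00394 for ORA47 to 0.226 for WES1 over the alternatives.

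In the immune signalling list of 12 genes, 4 fell and 1 rose (41.7% called, against 4.14% over all genes). The median change was -0.47 against -0.03 over all genes. The list was chosen with earlier results of these data known, and its WRKY and PUB genes are also counted in the WRKY and U-box families. The arrays of 8 of the 12 lay wholly lower at 6 h, as they did in 10.7% of all genes. PUB22, PUB23 and PUB24 are U-box ubiquitin ligases that dampen the response to bacterial patterns. PUB24 measured 5.23, 4.74 and 4.95 at 0 h against 4.25, 4.18 and 3.59 at 6 h and PUB22 8.11, 8.16 and 8.33 at 0 h against 7.59, 7.83 and 7.56 at 6 h. Both sets were wholly lower at 6 h, and PUB24 fell by 0.97 (limma adjusted p = 0.0179) while PUB22 fell by 0.54 (adjusted p = 0.0249). PUB23 had a change of -0.55 and was not called (adjusted p = 0.0731). AP2C1 (AT2G30020), a phosphatase that inactivates stress-activated kinases, fell by 0.86, and WRKY22 also fell, as given above. BIK1, a kinase that relays signals from pattern receptors, was the gene that rose, by 0.67. WRKY6 and WRKY29 were not called, with changes of -0.17 and -0.41.

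With array 3 of 0 h left out the immune list held 1 rise and 2 falls, and after median centring 1 rise and 5 falls. The list held no call without array 1 of 0 h, and none without array 3 of 6 h. Calls ended by leaving out 1 array were those of PUB24 (array 1 of 0 h or array 3 of 6 h, 0.105 to 0.109), PUB22 (any array of 0 h or array 1 or 3 of 6 h, 0.0523 to 0.103), AP2C1 (any array of 0 h or any array of 6 h, 0.0721 to 0.155), BIK1 (array 1 or 2 of 0 h or any array of 6 h, 0.0791 to 0.209) and WRKY22 (array 1 of 0 h or any array of 6 h, 0.0509 to 0.121). Across the alternatives their adjusted p ran from 0.00209 for AP2C1 to 0.209 for BIK1. STZ (ZAT10), a zinc finger gene induced by many stresses, had a change of -0.92 that was not called (adjusted p = 0.177), with means of 8.00 ± 0.38 at 0 h and 7.09 ± 0.60 at 6 h (SD, n = 3).

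Among peptide and calcium signalling genes, the RALF-like, CLE and calmodulin-like families had 1 call each. RALFL27, of the rapid alkalinization factor family of secreted peptides, measured 4.80, 4.68 and 5.01 at 0 h against 5.79, 5.78 and 5.95 at 6 h. The 2 sets of arrays were far apart, with a rise of 1.01 ± 0.19 (SE, limma adjusted p = 0.00348). The other 17 of 18 RALF-like genes were not called, and RALFL32 came nearest with a change of 0.47 (adjusted p = 0.0572), and it was called higher without array 3 of 0 h. CLE14, a peptide gene known from roots short of phosphate, fell by 0.49, alone among 17 CLE genes, and CLV3 was called lower beside it without array 3 of 0 h. CML39 (AT1G76640), a calmodulin-like calcium sensor, measured 6.53, 6.88 and 5.55 at 0 h against 4.30, 4.38 and 4.41 at 6 h, and array 3 of 0 h was the nearest to the 6 h values. Its 6 measured relatives were not called, such as CML23 with -0.65 and CML42 with 0.13. Single arrays ended the call of CLE14 (array 1 of 0 h or array 1 or 2 of 6 h, 0.0904 to 0.156), and its adjusted p ran from 0.0119 to 0.186 over the alternatives. No call was made among 10 glutamate receptor-like genes or 6 ATL ubiquitin ligases, though GLR2.2 was called lower without array 3 of 0 h.

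In the redox and stress lists calls fell on 1 or 2 members of each list that had any, some higher and some lower. GSTU25, a glutathione S-transferase, a class that attaches glutathione to toxic compounds, measured 8.75, 8.95 and 8.81 at 0 h against 8.28, 8.27 and 8.27 at 6 h. The 6 h arrays were nearly identical and all lower, and the gene fell by 0.57 ± 0.09 (SE, limma adjusted p = 0.00133). GSTF13 also fell, by 1.96, while 13 of 15 measured members were not called. Of these GSTU26 and GSTU20 had changes of 0.39 (adjusted p = 0.0572) and 0.77 (adjusted p = 0.057). Without array 3 of 0 h the family had 2 rises and 2 falls. MSRB6, which repairs oxidised methionine, rose by 1.53, alone among 7 measured members of its family. The glutaredoxin ROXY1, known from flower development, rose by 0.92, and GRX480, a glutaredoxin induced by salicylic acid, fell by 0.88. The fit of the 6 arrays alone ended the calls of GSTU25, ROXY1 and GRX480 (adjusted p of 0.0555, 0.103 and 0.0888). Median centring also ended that of ROXY1 (adjusted p = 0.0577). Both glutaredoxin calls were lost without single arrays, ROXY1 (array 2 or 3 of 0 h or any array of 6 h, 0.0661 to 0.147) and GRX480 (array 2 of 0 h or any array of 6 h, 0.0689 to 0.156), and their adjusted p ran from 0.00268 for ROXY1 to 0.156 for GRX480 over the alternatives.

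KIN2, a small protein gene induced by cold, drought and abscisic acid, measured 6.27, 6.50 and 6.83 at 0 h against 7.36, 7.54 and 7.50 at 6 h. It was higher in all 6 h arrays, by 0.93 ± 0.17 (SE, limma adjusted p = 0.0029). The dehydrin gene COR47 rose by 0.41 from an already high level. The other 16 of 18 cold and dehydration genes were not called, COR15A, KIN1 and LTI30 among them, with changes of -0.04, -0.17 and 0.48. DI21, of the same list, was called lower without array 3 of 0 h, and COR47 was not called after median centring (adjusted p = 0.0559). Among 90 defensin-like and thionin genes LCR69 rose by 0.74, PDF2.5 fell by 0.40, and the median change was -0.10. The defensin-like calls became 1 higher and 4 lower without array 3 of 0 h, and 1 higher and 2 lower after median centring. No gene was called among 11 heat shock genes or 14 genes of protein folding in the endoplasmic reticulum, where BIP1 had a change of 0.27. Leaving out single arrays ended the calls of COR47 (array 1 of 0 h or any array of 6 h, 0.0667 to 0.208), LCR69 (array 1 or 3 of 0 h or array 1 or 2 of 6 h, 0.0529 to 0.0983) and PDF2.5 (array 1 or 2 of 0 h or any array of 6 h, 0.0693 to 0.15). Those 3 had adjusted p-values from 0.00364 for COR47 to 0.245 for COR47 over the alternatives.

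Each cell wall family with a call had 1 or 2 called members. GH9C3 and GH9C2 belong to the class of endoglucanases that carry a cellulose-binding module. GH9C3 measured 8.05, 8.09 and 8.05 at 0 h against 7.37, 7.31 and 7.42 at 6 h, and it fell by 0.70 ± 0.11 (SE, limma adjusted p = 5.55e-04). GH9C2 measured 8.93, 8.89 and 8.99 at 0 h against 8.55, 8.55 and 8.37 at 6 h, and it fell by 0.45 (adjusted p = 0.00481). In both, the lowest 0 h array lay above the highest 6 h array. The third measured GH9C gene, GH9C1, had a change of 0.74 that was not called (adjusted p = 0.0657), and none of the other 16 of 19 GH9 genes was called. The call of GH9C2 was lost in the fit of the 6 arrays alone (adjusted p = 0.113). Without array 3 of 0 h the family had 2 rises beside the 2 falls.

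TBL28, of a family whose members acetylate wall polysaccharides, measured 5.62, 5.98 and 6.20 at 0 h against 6.81, 6.60 and 6.37 at 6 h and rose by 0.66 ± 0.14 (SE, limma adjusted p = 0.01). It was the only called one of 24 TBL genes, joined by TBL34 when array 3 of 0 h was left out. EXPA8, an expansin that loosens walls, rose by 0.69, alone among 24 expansins, with 3 called higher when array 3 of 0 h was left out and none after median centring. XTH32, which cuts and rejoins xyloglucan, rose by 0.74, alone among 10. Pectin methylesterases, which remove methyl groups from pectin, had 2 calls among 8, in which PMEPCRF rose by 0.78 and ATPMEPCRB fell by 2.1. Neither the 9 cellulose synthase-like genes nor the 4 SKU5-like genes had a call, though sks16 was called lower when array 3 of 0 h was left out. The 6 arrays alone gave no call of PMEPCRF, TBL28, EXPA8 or XTH32 (adjusted p of 0.0756, 0.144, 0.127 and 0.104). Calls lost without 1 array were those of TBL28 (array 1 of 0 h or array 1 of 6 h, 0.0651 to 0.0779), EXPA8 (array 1 or 2 of 0 h or array 2 or 3 of 6 h, 0.132 to 0.191) and XTH32 (array 1 or 2 of 0 h or array 1 or 3 of 6 h, 0.0578 to 0.172). For these 3 the alternatives gave an adjusted p from 0.00262 for TBL28 to 0.191 for EXPA8.

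Sugar transporter genes of the SWEET and tonoplast groups had 4 called members among 21 measured, all of them higher at 6 h (19%, against 2.49% called higher over all genes). SWEET17, a fructose carrier of the tonoplast, measured 4.43, 4.21 and 4.71 at 0 h against 5.16, 5.21 and 5.36 at 6 h and SWEET16, its close relative, 4.65, 5.36 and 5.43 at 0 h against 6.37, 6.44 and 6.27 at 6 h. SWEET2, which holds sugar back from leaving the root, measured 4.67, 4.73 and 4.95 at 0 h against 5.43, 5.66 and 5.17 at 6 h. No 0 h array reached the lowest 6 h array in any of the 3. The rises were 0.80 ± 0.15 (SE, limma adjusted p = 0.00444) for SWEET17 and 1.21 ± 0.26 (adjusted p = 0.00916) for SWEET16. SWEET2 rose by 0.64 ± 0.16 (adjusted p = 0.0238), and SFP1, a sugar transporter of the ERD6-like group, by 0.81 ± 0.17 (adjusted p = 0.00853). The plasma membrane carriers SWEET11 and SWEET13 were not called, with changes of 0.10 and -0.03. TMT1 and TMT2, which load sugar into the vacuole, had changes of -0.08 and 0.18, and the median over the 21 genes was -0.02. The count of 4 rises and 0 falls was the same without array 3 of 0 h and after median centring. Without array 1 of 0 h, SWEET16, SWEET2 and SFP1 all lost their call (adjusted p of 0.0722, 0.111 and 0.0582). Of the 4, only SWEET17 kept its call there. Leaving out 1 array ended the calls of SWEET16 (array 1 of 0 h, 0.0722), SWEET2 (array 1 or 2 of 0 h or array 1 or 2 of 6 h, 0.0717 to 0.134) and SFP1 (array 1 of 0 h, 0.0582). Their adjusted p ran from 9.31e-04 for SWEET16 to 0.134 for SWEET2 in the alternatives. SWEET17 and SWEET2 were not called in the fit of the 6 arrays alone (adjusted p of 0.0519 and 0.104).

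The NPF and NRT2 families carry nitrate, peptides, hormones and glucosinolates. Among their 14 genes 2 rose and 1 fell (21.4%, against 4.14% over all genes), with a median of 0.29 against -0.03 over all genes. NPF4.4 (AT1G33440) measured 3.25, 3.07 and 3.15 at 0 h against 3.87, 3.87 and 3.73 at 6 h, a rise of 0.66 ± 0.14 (SE, limma adjusted p = 0.00659) with no overlap. GTR2, a glucosinolate importer, rose by 0.59, and NPF6.4 (AT3G21670), a nitrate transporter, fell by 0.86. NAXT1, a nitrate exporter of roots, had a change of 0.76 and was not called (adjusted p = 0.0626). With array 3 of 0 h left out, 4 of the 14 rose. Calls of GTR2 (array 2 of 6 h, 0.0741) and NPF6.4 (array 1 of 0 h or array 1 or 2 of 6 h, 0.0556 to 0.0767) were lost without 1 array, with an adjusted p from 0.00206 for GTR2 to 0.0916 for GTR2 over the alternatives.

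In the list of 16 metal handling genes 3 rose (18.8%, against 2.49% over all genes) and none fell, with a median of 0.30 against -0.03 over all genes. This list too was chosen with earlier results of these data known. MT1C, a metallothionein that binds copper and zinc, measured 8.39, 8.48 and 8.71 at 0 h against 9.43, 9.56 and 9.40 at 6 h. The groups did not overlap, and the rise was 0.93 ± 0.19 (SE, limma adjusted p = 0.0059). MT1B, a second metallothionein gene, rose by 1.62, with means of 1.36 ± 0.31 at 0 h and 2.98 ± 0.47 at 6 h (SD, n = 3), a low level at both times. Both belong to a small family of similar sequences, and their probe sets may share signal. ZIP6, of the zinc and iron transporter family, rose by 0.78, while ZIP9 had a change of 0.93 and was not called (adjusted p = 0.0549). Genes of the iron deficiency network showed no call with all arrays, such as PYE with -0.08, ILR3 with 0.23 and BHLH101 with -0.39. Also not called were bHLH115, bHLH34, bHLH104 and bHLH121, with changes of 0.48, 0.45, 0.35 and 0.25. With array 3 of 0 h left out, 5 of the 16 rose, bHLH104 and ZIP9 among them. The calls of MT1B (array 1 or 2 of 0 h or any array of 6 h, 0.0729 to 0.179) and ZIP6 (array 1 or 2 of 0 h or array 2 or 3 of 6 h, 0.0615 to 0.208) ended without 1 array, and the alternatives gave them an adjusted p from 0.00631 for ZIP6 to 0.221 for ZIP6. None of the 9 CHX cation exchangers was called.

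Carbon and nitrogen metabolism, a list of 34 enzymes put together after the calls were seen, held 4 falls and 2 rises (17.6% called, against 4.14% over all genes). The falls and rises became 4 and 4 without array 3 of 0 h and 4 and 1 after median centring. ASPGB1, which splits asparagine into aspartate and ammonium, measured 5.68, 5.73 and 5.76 at 0 h against 4.87, 4.73 and 5.11 at 6 h. APL3, a large subunit of the enzyme that makes ADP-glucose for starch, measured 5.43, 5.35 and 5.32 at 0 h against 4.68, 4.29 and 4.34 at 6 h. Both were lower in every 6 h array than in any 0 h array. ASPGB1 fell by 0.82 ± 0.12 (SE, limma adjusted p = 3.24e-04) and APL3 fell by 0.93 ± 0.16 (adjusted p = 0.00184). PPDK, which interconverts pyruvate and phosphoenolpyruvate, fell by 0.70, and ALDH7B4, a stress-linked aldehyde dehydrogenase, fell by 0.36. The rises were those of ACLA-3, a subunit of ATP-citrate lyase, which makes cytosolic acetyl-CoA, by 0.37, and of PDC2, a pyruvate decarboxylase, by 0.47. The abundant enzymes cICDH and MDH had changes of 0.14 and 0.10, neither called. Without single arrays the calls of PPDK (array 1 or 2 of 0 h or any array of 6 h, 0.0684 to 0.197), ALDH7B4 (array 3 of 6 h, 0.0661), ACLA-3 (array 1 of 0 h or array 2 of 6 h, 0.0518 to 0.0573) and PDC2 (array 1 of 0 h or any array of 6 h, 0.054 to 0.153) were lost. The adjusted p of those 4 ran from 0.0012 for ALDH7B4 to 0.197 for PPDK over the alternatives.

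Glycoside and specialised metabolism had 1 or 2 calls in each of the families described here. BGLU44, a beta-glucosidase, measured 2.79, 2.06 and 3.16 at 0 h against 5.08, 5.59 and 5.31 at 6 h, the one called gene among 24 named members. Without array 3 of 0 h the family had 2 rises and 2 falls, and after median centring 1 of each. The endoplasmic reticulum body enzyme PYK10 had a change of 0.22 and BGLU21 one of -0.28, neither called with all arrays and no centring, while BGLU21 was called lower under both alternatives. Of 55 UDP-glycosyltransferases 2 rose (3.64%, against 2.49% called higher over all genes). The rises were those of UGT78D2, which attaches glucose to flavonoids, by 0.62 and of UGT85A2 by 0.39. These became 5 rises and 2 falls without array 3 of 0 h, and 1 rise and 1 fall after median centring. Of 26 cytochrome P450 genes CYP718 rose by 0.94. The calls of UGT78D2 (array 1 or 2 of 0 h or array 1 or 2 of 6 h, 0.0644 to 0.134), UGT85A2 (array 1 or 2 of 0 h or array 2 or 3 of 6 h, 0.0789 to 0.154) and CYP718 (array 1 or 2 of 0 h or array 1 of 6 h, 0.0619 to 0.117) were lost without 1 array, with an adjusted p from 0.00257 for CYP718 to 0.245 for UGT85A2 over the alternatives.

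Called members of the ubiquitin conjugase, subtilase, carboxypeptidase and autophagy lists were higher at 6 h, unlike the U-box ligases PUB22 and PUB24. UBC16, a ubiquitin-conjugating enzyme, measured 5.25, 5.36 and 5.47 at 0 h against 6.25, 6.31 and 6.26 at 6 h. The rise was 0.92 ± 0.16 (SE, limma adjusted p = 0.00193), and the arrays of each time lay close together. UBC22 rose by 0.32, and the other 26 of 28 ubiquitin conjugases and proteases were not called. ATG8H and ATG8F, small proteins that coat the membranes of autophagy, rose by 0.64 and 0.56 among 10 genes (20%, against 2.49% called higher over all genes). That list was made after the calls were seen. ATG3, the enzyme that attaches ATG8 to lipid, had a change of 0.17 and was not called. The subtilase gene ATSBT5.2 rose by 1.44, alone among 11 measured subtilases. The serine carboxypeptidase-like genes SCPL45 and scpl46 rose by 0.54 and 0.68 among 32 (6.25%, against 2.49% called higher over all genes). Without 1 array the calls of UBC22 (array 1 or 2 of 0 h or array 2 or 3 of 6 h, 0.112 to 0.176), ATG8H (array 1 or 2 of 0 h or array 2 or 3 of 6 h, 0.0551 to 0.1), ATG8F (array 1 or 2 of 0 h or any array of 6 h, 0.0583 to 0.18), SCPL45 (array 1 of 0 h or array 2 or 3 of 6 h, 0.0625 to 0.0885) and scpl46 (array 1 or 2 of 0 h or any array of 6 h, 0.0526 to 0.203) were lost. Median centring also ended the calls of UBC22 (adjusted p = 0.0961) and ATG8F (adjusted p = 0.051). Over the alternatives the adjusted p of these 5 ran from 0.00155 for scpl46 to 0.28 for UBC22.

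Genes of membranes and the cytoskeleton were called in both directions. TET10, a tetraspanin, a protein that organises membrane patches, measured 4.40, 4.46 and 4.33 at 0 h against 5.02, 5.20 and 5.16 at 6 h. It rose by 0.73 ± 0.11 (SE, limma adjusted p = 7.07e-04) with no overlap, while TET11 fell by 0.56 from a low level, among 12. TRM25, of a family that recruits proteins to microtubules, measured 6.19, 5.77 and 5.70 at 0 h against 5.25, 4.98 and 5.02 at 6 h, and it fell by 0.80 ± 0.13 (SE, adjusted p = 8.93e-04), again with no overlap. TRM27 rose by 0.70 among 15 measured TRM genes, of which 4 were called higher and 1 lower without array 3 of 0 h. The calmodulin-binding IQD26 and IQD30, also linked to microtubules, had changes of -0.65 and -0.42, both falls, among 17. Leaving out array 3 of 0 h gave 1 rise, that of IQD23, and 1 fall. SEC15A, a subunit of the exocyst that tethers vesicles, fell by 0.34, alone among 23 exocyst and ESCRT genes. Calls of TET11 (array 2 of 0 h or array 2 or 3 of 6 h, 0.0564 to 0.0762), TRM27 (array 1 or 2 of 0 h or array 2 of 6 h, 0.0632 to 0.0854), IQD30 (any array of 0 h or any array of 6 h, 0.0505 to 0.2) and SEC15A (any array of 0 h or any array of 6 h, 0.0519 to 0.115) were lost without 1 array, and those of TRM25 and IQD26 in the fit of the 6 arrays alone (adjusted p of 0.0611 and 0.0617). TET11, TRM27, IQD30 and SEC15A were not called in that fit either (adjusted p of 0.135, 0.0527, 0.195 and 0.205). For these 4 the adjusted p lay from 0.00299 for TRM27 to 0.205 for SEC15A over the alternatives.

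The lists of division, replication and transcription machinery had no call with all arrays, and 2 without array 3 of 0 h, where SIM and SP1L4 were called higher. None of 18 histone and mitosis genes was called, with changes from -0.15 to 0.37, the highest that of SIM, an inhibitor of mitotic entry (adjusted p = 0.0641). The Aurora kinase genes AUR1, AUR2 and AUR3 had changes of 0.07, 0.10 and 0.08, none called. The 20 replication and repair genes had changes from -0.23 to 0.18, with PRL (MCM7), of the replicative helicase, at 0.10. The 17 RNA polymerase subunits ran from -0.31 to 0.51. Among 14 tubulin and kinesin genes none was called, and TUB9 had a change of -0.02. The 95% confidence interval of the change ran from -0.15 to 0.29 for AUR1 and from -0.07 to 0.27 for PRL.

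Of 14 nuclear genes of photosynthesis 2 rose (14.3%, against 2.49% called higher over all genes), and plastid-encoded genes had no call. RCA, Rubisco activase, measured 4.49, 4.65 and 4.50 at 0 h against 5.19, 5.34 and 5.45 at 6 h, and it rose by 0.78 ± 0.14 (SE, limma adjusted p = 0.00257) with no overlap. ATPC1, a subunit of the plastid ATP synthase, rose by 0.61. The median over the 14 genes was 0.39, and the arrays of 7 lay wholly higher at 6 h (10% of all genes). The mean over the list was 2.85 to 3.02 at 0 h and 3.22 to 3.33 at 6 h. Both are low levels, under the median 0 h level of 3.73 over all genes. LHB1B2, a light-harvesting protein gene, had a change of 0.62 (adjusted p = 0.0535) and was not called. The 63 plastid-encoded genes had changes from -0.21 to 0.31, and without array 3 of 0 h rpoC2 was called lower. Leaving out 1 array ended the call of ATPC1 (array 1 of 0 h or array 1 or 2 of 6 h, 0.0745 to 0.103), with an adjusted p from 0.0108 to 0.144 over the alternatives. RCA is also the only measured one of 11 shoot markers, and whether the tissue harvested differed in this respect was not tested.

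No marker of another root cell type was called with all arrays. EXPA7 and EXPA18, expansins of root hair cells, were the only 2 of 13 epidermis and root hair markers measured. Their mean level was 7.01 to 7.75 at 0 h and 7.99 to 8.03 at 6 h, and their changes were 0.61 (adjusted p = 0.108) and 0.81 (adjusted p = 0.0532). Without array 3 of 0 h both were called higher. This difference in level moved with the called genes, and its part in their changes was not tested. The 5 phloem genes had changes of 0.25 for OPS, 0.24 for CLE25, 0.04 for CLE45, -0.01 for CLE44 and -0.50 for CLE41, none called.

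The mean levels over the course place these changes in time. GH3.17 went from 6.15 before DEX to 6.76 at 1 h, and stood at 7.04 both at 2 h and at 6 h. At 1, 3 and 6 h WRKY42 stood at 5.88, 6.65 and 6.61, and MT1C at 8.50, 9.27 and 9.46. In the falling genes, TRM25 was at 5.04 by 0.5 h, against 5.08 at 6 h. ASPGB1 first stood higher, at 6.00 at 1 h, and then lower, at 5.08 at 3 h and 4.90 at 6 h. GH9C3 had its lowest mean, 6.98, at 2 h and stood at 7.37 at 6 h. These levels are a description, since tests at the other times were not part of this comparison and each change shown is from the same 0 h arrays.

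**Figure D4:**
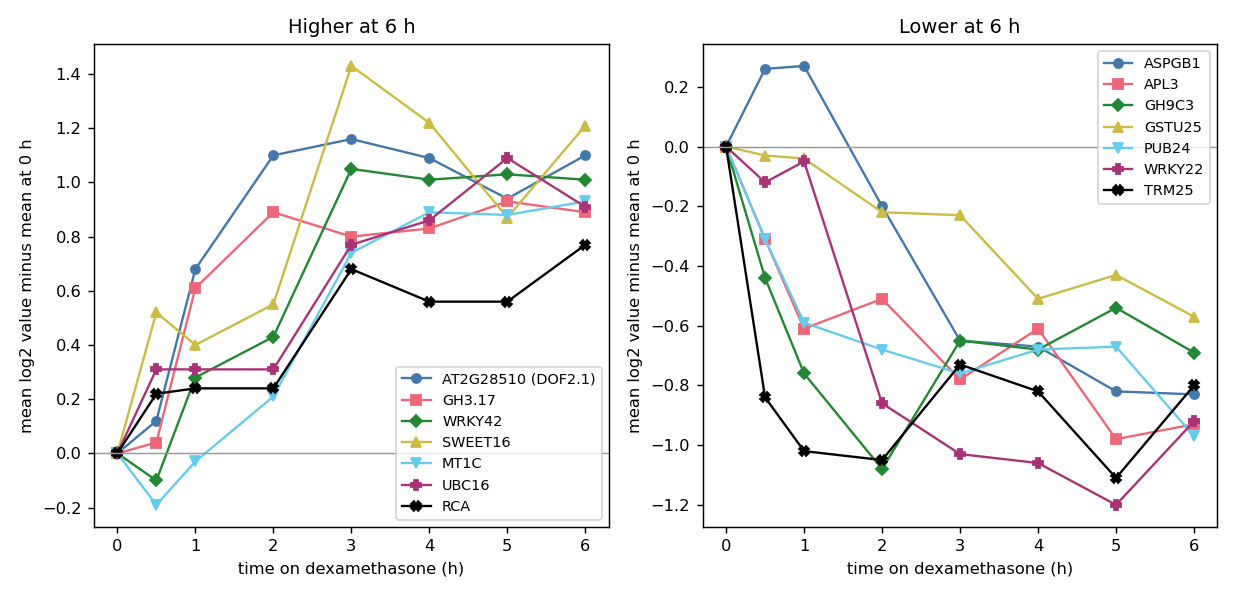
Mean log2 value minus the mean at 0 h (vertical axis, n = 3 arrays a time) against hours on dexamethasone, for 7 genes that were higher at 6 h (left) and 7 that were lower (right). GH3.17 and TRM25 are near their 6 h level by 2 h and 0.5 h, WRKY42, MT1C and RCA by 3 h, and ASPGB1 lies above its 0 h level until 1 h.

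The nearest time, 5 h, was compared with 6 h to see what the last hour added. Limma called 0 of 16554 genes (0%), with a smallest adjusted p of 0.504, and 582 genes had an unadjusted p under 0.05. Leaving out array 3 of 5 h gave 1 call, that of AT1G16225, with a change of -1.0 (adjusted p = 0.0286, against 0.659 with all arrays), and each other alternative gave 0. For the 99 called genes with a symbol, the change from 5 h to 6 h ran from -0.68 to 0.38, with a median size of 0.10. KIN2 and SWEET16 stood 0.34 higher at 6 h than at 5 h, WRKY22 0.28 higher and PUB24 lower by a change of -0.30. None of these differences passed the test, which does not show that the levels at 5 h and 6 h were equal.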

How the data were processed

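RNA from root meristems was measured on Affymetrix whole-transcript arrays, 24 in all. The authors deposited log2 values computed with RMA, per the submitters' processing notes, a step that corrects background, normalizes quantiles and sums probes per probe set. Arrays are thereby forced to like distributions, so a shift shared by most genes can be hidden. For the RMA version and the build, the sources used here give nothing. Values ran from 0.154 to 13.2 with no detection calls, and array medians from 3.86 to 4.01. Precision is limited by the number of arrays.

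Of 38408 probe sets the platform annotation paired 16746 with 1 gene, 758 with several and 20904 with none here. The first were averaged per gene (16554 genes, 163 with several probe sets), and 16601 matched the TAIR10.1 RefSeq gene table, which supplied current symbols and synonyms. Groups came from sample titles. A linear model of 8 group means took in all 24 arrays (limma 3.58.1, R 4.3.3, lmFit and eBayes), with the contrasts 6 h minus 0 h and 6 h minus 5 h and Benjamini-Hochberg adjustment at 0.05. Standard errors share one estimate of the spread per gene, while the arrays' residual SD was 0.242 to 0.263 at 0 h and 0.186 to 0.202 at 6 h, so the error against 0 h may be understated. On simulated data with 200 of 16554 genes changed, the fit called 35.2% of genes with a log2 change of 0.5. It called 86% of those with a change of 1 and 99.7% of those with a change of 2. Small changes can thus be missed, and a gene not called is not shown to be unchanged.

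Families and lists were picked by gene symbol and were chosen with earlier results of these data known. They are described by counts and medians, with no set test. The carbon and nitrogen and the ATG8 lists were composed after calls were seen, and symbol patterns were rewritten once the annotation was read. Named genes are DOF2.1 and LHW, then up to 4 called members of each family by adjusted p and up to 2 not called by mean level. Members near the threshold, small families in full and genes outside families were added after their values were seen. Alternatives were median centring or a second quantile normalization, array weights, a trend and robust variance model, a replicate block, the brightest probe set, no dim genes, a minimum change, the 6 arrays alone and leaving out each array. One transcription factor family and 1 cell type marker are not reported here. Promoter motifs, planned for the called genes, were not analysed here.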

Additional observations from a re-analysis of the deposited data

Results flagged for a closer look

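Probe sets that carry no gene name here were outside the comparison by gene. When all 38408 probe sets were tested by ID, a fit added after seeing the data, 498 of the 20904 unnamed ones were called at 6 h against 0 h (2.38%), 354 higher and 144 lower. Over all probe sets of that fit 1029 were called (2.68%), so the share among the unnamed ones was not above that of the whole array.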

How the results depend on the processing

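Against 686 genes called (413 higher, 273 lower), the 6 arrays alone gave 197 (117 and 80), and a log2 change of at least 1 gave 127 (69 and 58). Leaving out 1 array gave 317 to 1129 in all, 183 to 702 higher and 134 to 427 lower. Median centring gave 313 higher and 411 lower, and a second quantile normalization 398 and 292. All probe sets by ID, an alternative chosen after seeing the data, gave 679 higher. The 70 called members of families became 27 with the 6 arrays alone and 32 to 104 without 1 array. For 6 h against 5 h, leaving out 1 array gave 0 to 1 calls. Array weights (625), the brightest probe set (686), the trend model (854) and no dim genes (809) stayed within 1.5 times of 686.

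Between 0 h and 6 h, deviations of same-numbered arrays correlated at 0.0494, 0.0123 and -0.018. Arrays 1 and 2 of 0 h correlated best with their own number at 6 h, and array 3 with number 2. No other time entered this check. On the first principal component repeat 3 lay above repeats 1 and 2 at each time from 0 h to 5 h, such as -4.01 against -16.9 and -13.9 at 1 h. Whether the repeats share a batch was not tested. With the repeat number as a block, 903 genes were called and 91 members of families. Of 104 called genes followed through 14 alternatives, 27 kept their call in each, 77 lost it in at least 1 and none reversed. Of the 104, 67 lost it with the 6 arrays alone, 53 without array 2 of 6 h, 52 without array 1 of 0 h, 16 after centring and 10 with array weights. The fewer residual degrees of freedom of the 6-array fit are part of its construction; the cause of the other losses was not tested. Signal over background limits low genes, which carry no detection calls.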

Other observations

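Several called genes with a symbol lay outside the families described, and were picked after their values were seen because no single array ended their call. TRY, a small MYB protein of epidermal patterning, measured 4.17, 4.12 and 4.19 at 0 h against 3.14, 3.49 and 3.28 at 6 h. It fell by 0.86 (limma adjusted p = 0.00257). HAT2, an auxin-induced homeodomain gene, fell by 0.55, and PUP18, of the purine permease family, fell by 0.91. MYBC1, a MYB-like factor, rose by 0.98 and SIRB, which inserts iron in siroheme synthesis, rose by 0.73. CHIL, a helper protein of flavonoid synthesis, rose by 0.49 from an already high level, 8.36 ± 0.08 at 0 h and 8.85 ± 0.07 at 6 h (SD, n = 3). TZP, a zinc finger protein of light-dependent growth, rose by 0.54. The calls of HAT2, CHIL and TZP were lost in the fit of the 6 arrays alone (adjusted p of 0.104, 0.0877 and 0.0946, the highest over 14 alternatives, and from 2.18e-04, for CHIL, upward in the others).

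Called genes were spread over the chromosomes, with 4.8% of measured genes called on chromosome 1, 3.85% on 2, 3.9% on 3, 4.03% on 4 and 3.98% on 5, and 0 of 63 in the plastid. Of 10314 neighbouring gene pairs measured, 31 had both genes called, 23 of them in the same direction, 15 higher and 8 lower. With 4.14% of all genes called (2.49% higher and 1.65% lower), some such pairs arise without any link between neighbours. The counts were not tested against that number. Of the pairs that differed, BIK1 rose by 0.67 while its neighbour AT2G39650 fell by 0.66. Cross-hybridisation between similar neighbours was not tested.

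The called genes were not drawn evenly by level. The median 0 h level was 5.30 for genes called higher and 5.48 for those called lower, against 3.73 for all genes, and no detection calls were available to set low genes apart.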
